A study of Mus musculus with 6 samples.

Results

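The interleukin-2, interleukin-7 and interleukin-15 system was described through 8 genes chosen by name, out of 31053 genes listed in the count table. They are the cytokine genes *Il2*, *Il7* and *Il15*, the receptor genes *Il2ra*, *Il7r* and *Il15ra*, which each serve 1 cytokine best, and the shared chains *Il2rb* and *Il2rg*. All 8 were detected. The cells came from CT26 tumors dissected 5 days after treatment and were enriched for CD45+ cells with beads. CT26 is a mouse colon carcinoma line, and the tumors grew in Balb/c females. The sample labels describe 6 tumors, 2 treated with vehicle, 2 with a low dose and 2 with a high dose of a bispecific antibody that joins an antibody to PD-1 with the ligand of GITR. The low dose is written as 10 mg/kg in the treatment protocol and as 30 mg/kg in the sample characteristics, while both state 30 mg/kg for the high dose. The table holds 4 libraries, named M1, M2, M5 and M6, and no source used here ties these names to a treatment. No value was therefore compared between treatments, and no p-value is given. Many levels are given for each library or with their range over libraries. Unless stated otherwise, a value without these is from all libraries together, where libraries with more UMIs or cells weigh more.

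IL-2, IL-7 and IL-15 are cytokines that keep lymphocytes alive and make them divide. All of them signal through the common gamma chain, encoded by *Il2rg*, with the kinases JAK1 and JAK3 and the transcription factor STAT5. IL-2 and IL-15 also share the beta chain encoded by *Il2rb*, while *Il2ra* (CD25) gives high affinity for IL-2 and is a standard marker of regulatory and recently activated T cells. IL-7 binds the alpha chain encoded by *Il7r* (CD127), a marker of naive and memory T cells and of helper innate lymphoid cells. IL-15 is unusual in that the cell that makes it carries it on its own IL-15 receptor alpha chain, encoded by *Il15ra*, and shows it to neighbouring T and NK cells.

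Levels are given in CPM, the unique molecular identifiers (UMIs) of a gene scaled to the UMIs of all cells of a label or class, as counts per 1e6 UMIs. Reads came from the 3′ end of transcripts, so levels were compared between cells for the same gene and never between genes. The table held 33961 cells in 12 annotation labels made by the authors from correlation with ImmGen profiles. Libraries M1 and M2 had 10294 and 8940 cells, of which 61.2% and 57.1% were labelled Stroma, and a median of 21801 and 20266 UMIs per cell. Libraries M5 and M6 had 7160 and 7567 cells, of which 27.2% and 30.9% were Stroma, and a median of 11399 and 12096 UMIs. Across the libraries, 111 cell barcodes occurred more than once, in 222 cells. Several labels went against markers. Cells labelled Stroma had *Col1a2* at 681 CPM but the pan-immune gene *Ptprc* at only 7.47 and *Xist*, the X-inactivation RNA of female cells, at 18.9, against 823 to 1442 in the 9 other labels of at least 100 cells. The NKT label held *Foxp3*, which defines regulatory T cells, at 196 CPM, and the NK receptor gene *Klrb1c* at 9.25. The ILC label held the NK receptor gene *Ncr1* at 422 CPM, against 450 in the NK label. The summed level of 4 NK markers (*Ncr1*, *Klrb1c*, *Eomes* and *Klra8*) was lower in ILC, at 647 CPM (611 to 750) against 861 (825 to 939). ILC is called by its label only.

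**Figure D1:**
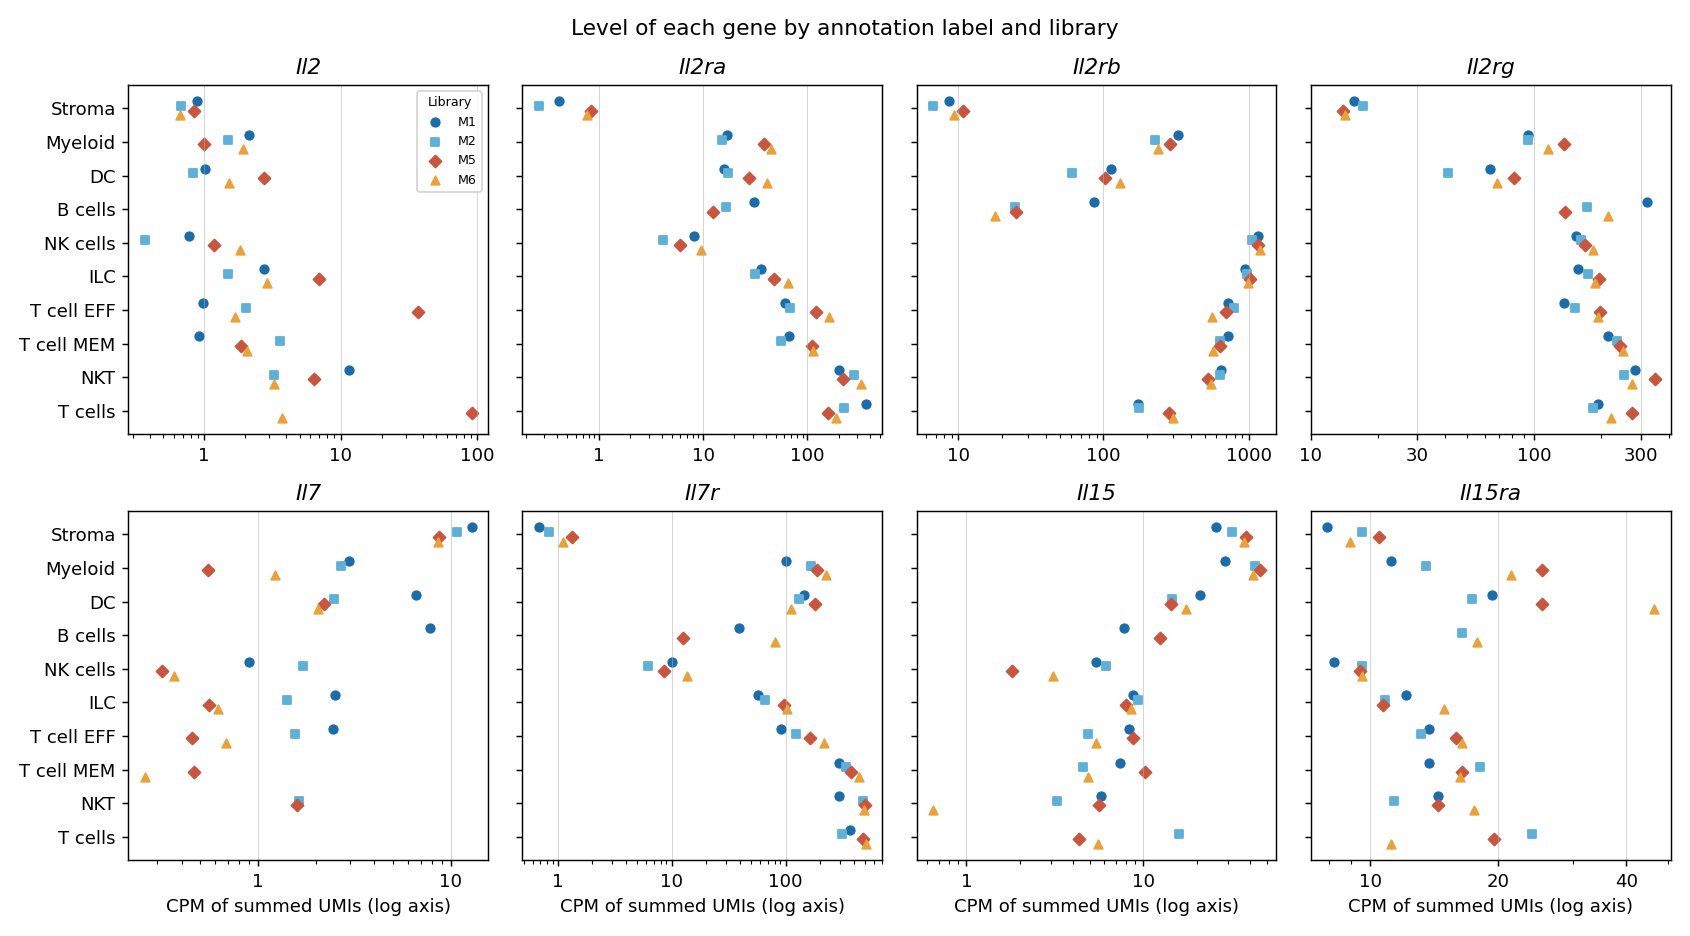
CPM of summed UMIs (log axis) of each of the 8 genes by annotation label, for the 10 labels of at least 100 cells. Each point is 1 library, and a library at 0 is not drawn. *Il7* is highest in Stroma, *Il2rb* in NK cells and ILC, and *Il2ra* in NKT and T cells, while *Il2* in T cell EFF and T cells is high in M5 alone.

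The 8 genes peaked in different labels, as the plot of levels by label shows. Of the 10 labels with at least 100 cells, Stroma was highest for *Il7*, Myeloid for *Il15*, DC for *Il15ra*, NK cells for *Il2rb*, NKT for *Il2ra* and *Il2rg*, and T cells (the label without a subset) for *Il2* and *Il7r*, by the UMIs of all libraries together. The rank for *Il2* rests on library M5, where 1 cell held 41 of the 44 *Il2* UMIs of the label T cells. Without M5 that label had 2.82 CPM, and by the median over libraries NKT was highest, at 4.82 CPM against 1.86. For *Il7r* the median was also highest in NKT, at 484 CPM against 419.6, and NKT was the higher in 2 of 4 libraries. The label T cells had 203 cells, of which 11 came from M1 and 19 from M2, so its values in those libraries rest on few cells.

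*Il2* lies on chromosome 3 (GRCm38, 37120523 to 37125959, minus strand). *Il2ra* (chromosome 2, 11642807 to 11693193) and *Il15ra* (chromosome 2, 11705290 to 11734317) are neighbours on the plus strand, 12096 bases apart. The stretches before the annotated starts of these genes are shown because *Il2* was concentrated in very few cells and because the adjacent receptor genes had different patterns over labels. They are RefSeq sequence of GRCm38.p6, 5′ to 3′ on the strand of the gene, and capitals mark the letters GGAAA, the core read by NFAT factors, on either strand. The *Il2ra* window ends short of the printed gene start, since RefSeq places the start further upstream.
Il2, chr3:37125960-37126204, minus strand: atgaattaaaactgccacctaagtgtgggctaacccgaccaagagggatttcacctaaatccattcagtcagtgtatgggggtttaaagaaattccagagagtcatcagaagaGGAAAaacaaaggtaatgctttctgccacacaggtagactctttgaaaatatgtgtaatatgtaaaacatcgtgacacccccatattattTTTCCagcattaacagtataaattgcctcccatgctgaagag
Il2ra, chr2:11642542-11642791, plus strand: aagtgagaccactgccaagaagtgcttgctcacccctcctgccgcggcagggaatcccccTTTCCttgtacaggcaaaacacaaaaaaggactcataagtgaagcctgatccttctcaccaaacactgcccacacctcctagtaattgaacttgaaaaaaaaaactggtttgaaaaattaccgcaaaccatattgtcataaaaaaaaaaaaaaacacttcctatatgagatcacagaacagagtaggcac
Il15ra, chr2:11705043-11705289, plus strand: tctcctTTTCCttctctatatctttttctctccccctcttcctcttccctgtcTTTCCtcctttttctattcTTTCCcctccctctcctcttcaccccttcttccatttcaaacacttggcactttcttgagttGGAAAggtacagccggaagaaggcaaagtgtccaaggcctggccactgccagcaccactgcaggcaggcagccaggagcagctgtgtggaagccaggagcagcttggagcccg
Counted from the gene starts given here, the *Il2* window held 2 matches, which began 132 and 42 bases before the start, the *Il2ra* window held 1 match, 205 bases before, and the *Il15ra* window held 4, between 241 and 113 bases before. GGAAA is common, and 55.6% of 32851 windows of up to 250 bases before RefSeq gene starts held it on at least 1 strand. Neither the STAT letters TTCNNNGAA, found in 7.02% of all windows, nor the AP-1 letters TGANTCA, found in 6.75%, were in these 3 windows. The window of *Il2rg* (chromosome X, 101264378 to 101268255, minus strand), held 1 GGAAA match at 23 bases and neither of the others. The other members are *Il2rb* (chromosome 15, 78479256 to 78495271, minus strand), *Il7r* (chromosome 15, 9505788 to 9530176, minus strand), *Il7* (chromosome 3, 7569994 to 7613760, minus strand) and *Il15* (chromosome 8, 82331632 to 82403222, minus strand).

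*Il2*, the T cell growth factor made by activated T cells, was concentrated in very few cells. Its 1710 UMIs lay in 840 cells, 2.47% of all cells, and 810 of these cells (96.4%) carried a single UMI. Only 10 cells had 5 or more *Il2* UMIs, and they held 858 UMIs, or 50.2% of the total. The single highest cell held 621 UMIs, 36.3% of all *Il2* in the table. For comparison, the highest cell held 0.761% of *Il2ra* and 0.0882% of *Il2rb*.

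The plot of the 10 *Il2*-high cells sets *Il2* beside *Ifng*, the gene of interferon gamma. The highest cell was labelled T cell EFF in library M5 and had 621 *Il2* UMIs among 71849 in all, with 1683 *Ifng* UMIs, 48 of CD3 chains and 23 of *Cd8a* and *Cd8b1*. The next was labelled ILC in M5 and had 120 *Il2* UMIs and 1141 of *Ifng*. A cell labelled T cells in M5 had 41 *Il2* UMIs, none of *Ifng*, and 9 of *Cd4*. The cells thus included some with *Cd8a* or *Cd8b1* and some with *Cd4*. All 10 carried UMIs of CD3 chains, of *Il2ra* and of *Tnfrsf18* (GITR, 1 of the 2 targets of the antibody), none carried *Foxp3*, and 7 carried *Ifng*. The other target, *Pdcd1* (PD-1), had 1, 0, 0, 2, 0, 3, 0, 1, 6 and 3 UMIs in the 10 cells, in falling order of *Il2*. These counts are not thinned, and the cells had 4598 to 113730 UMIs. Without thinning, 44.6% of T cell EFF carried *Il2ra*, and shares in other T cells of like depth were not computed. By label, 4 were ILC, 2 T cell EFF, 2 Myeloid, 1 T cells and 1 NKT.

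**Figure D2:**
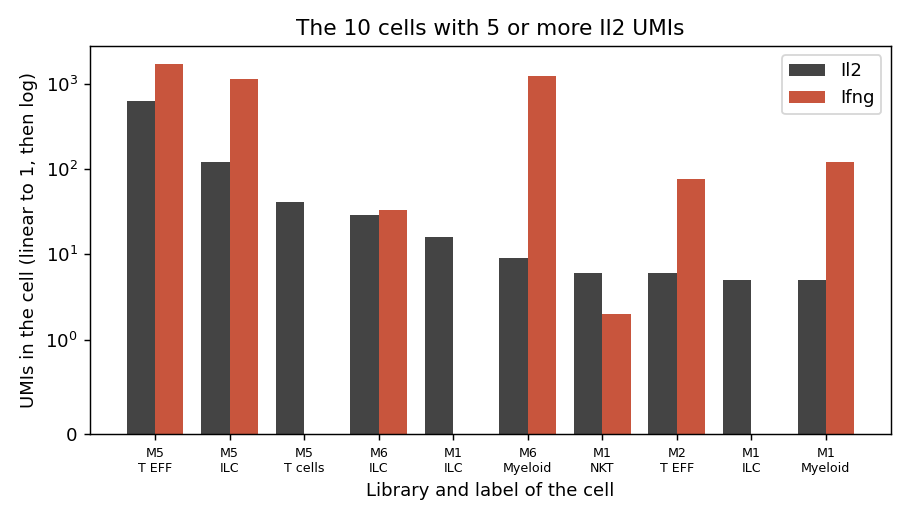
*Il2* and *Ifng* UMIs in each of the 10 cells with 5 or more *Il2* UMIs, by library and label of the cell, on an axis that is linear to 1 and logarithmic above. The highest cell has 621 *Il2* and 1683 *Ifng* UMIs, and 3 of the 10 cells have no *Ifng* UMI.

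These few cells set the level of *Il2* by label. In T cell EFF it was 13.4 CPM (M1 0.983, M2 2.02, M5 36.9, M6 1.69), and without the 10 cells it was 1.505. In the label T cells it was 37.6 CPM, with 0 in M1 and M2, 91.4 in M5 and 3.72 in M6, and without those cells 2.62. The NKT label had 5.60 CPM and kept 4.15 without the 10 cells, between 2.91 and 6.39 over the libraries, which lay above the 0.661 to 0.883 of Stroma without overlap. However, NKT held only 8, 2, 8 and 5 *Il2* UMIs in M1, M2, M5 and M6. A left-out cell held 6 of those in M1, so the counting error of each library value is large. ILC had 3.81 CPM and 1.30 without them. Myeloid, DC, NK cells and T cell MEM stood between 1.11 and 2.02 CPM. None of the 124 B cells had an *Il2* UMI, which allows up to 6.78 CPM.

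Stroma gives the level of *Il2* in cells that should not make it. Its 526 cells with a UMI, 3.35% of Stroma, had at most 2 UMIs each, at a median depth of 40692 UMIs per cell. Stroma carried few T cell transcripts, and may be a low floor for other labels. The summed level of 4 T cell markers was 11.1 CPM in Stroma, 72.3 in B cells and 500 in Myeloid. After each cell was thinned to 2000 UMIs, so that depth no longer differed, 0.128% of Stroma and 0.254% of T cell EFF carried *Il2*, with exact binomial intervals of 0.0781 to 0.197 and 0.116 to 0.481. Without thinning, the T cell EFF share was 2.17%, at a median depth of 10049 UMIs. NKT had the highest thinned share, 1.54% (0.773 to 2.74), and 2.18% without thinning, at a median of 4287 UMIs. All intervals are 95% intervals and cover counting error only.

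*Il7*, a cytokine gene that stromal cells express for lymphocytes, was highest in the label Stroma in every library. Stroma had 11.0 CPM (M1 12.8, M2 10.8, M5 8.73, M6 8.60). DC came next with 3.31 CPM (M1 6.60, M2 2.48, M5 2.20, M6 2.04), and the 4 Stroma values lay above all 4 DC values. Myeloid had 1.74 CPM and the lymphocyte labels with at least 500 cells stood between 0.288 and 1.20. Stroma held 96.5% of the 7865 *Il7* UMIs, while it held 75.6% of all UMIs. Within Stroma the level did not follow the matrix gene *Col3a1*. The 243 cells with at least 3 *Col3a1* UMIs at 2000 UMIs had 10.8 CPM, and the 13860 with none also had 10.8. At that depth 390 Stroma cells carried an *Xist* UMI and 15252 did not, with *Il7* at 8.78 and 11.0 CPM. The level of Stroma is therefore mostly that of cells without an *Xist* UMI, although such a UMI can be missed at 2000 UMIs.

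*Il15* was highest in Myeloid and close behind in Stroma, and was higher in Myeloid cells with neutrophil genes than in the other Myeloid cells. Myeloid had 40.1 CPM (M1 28.99, M2 42.9, M5 45.6, M6 41.8). Stroma had 31.1 CPM, with 25.8, 31.8, 37.9 and 37.0 in the same order. Myeloid was higher in each of the 4 libraries, by little, and the ranges overlapped. The 2109 Myeloid cells with few *S100a8* and *S100a9* UMIs had 31.3 CPM, close to Stroma. They were above it in M1, by little, and in M2, and below it in M5 and M6. DC followed with 16.7 CPM (14.3 to 20.8), below Myeloid and Stroma without overlap, then ILC with 8.55, T cell EFF with 7.09 and NK cells with 3.77. Because Stroma was so large, it held 88.2% of the 24430 *Il15* UMIs.

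*Il15ra*, the chain that presents IL-15, had a flatter pattern. DC had 26.6 CPM (M1 19.3, M2 17.4, M5 25.3, M6 46.5). Myeloid had 18.6 CPM, with 11.2, 13.5, 25.4 and 21.5. The 2 labels overlapped, and DC was the higher in 3 of 4 libraries. T cell MEM, NKT and T cell EFF stood at 16.2, 15.1 and 14.9 CPM, ILC at 12.4, NK cells at 9.25 and Stroma at 8.93. ILC (10.7 to 14.9) lay above NK cells (8.23 to 9.57) without overlap, and the other neighbours in this order overlapped.

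*Il15ra* was high in a subset of DC. DC were split by UMIs after thinning to 2000 into a class with *Ccr7* or *Fscn1*, genes of mature dendritic cells on their way to lymph nodes (145 cells), and a class with *Xcr1* or *Clec9a*, genes of type 1 conventional dendritic cells (126 cells). In the *Ccr7* or *Fscn1* class *Il15ra* was 85.9 CPM (M1 74.8, M2 76.4, M5 83.3, M6 97.0). In the *Xcr1* or *Clec9a* class it was 3.31 CPM, with 2.15, 5.26, 2.10 and 2.42, from 7 UMIs, and its exact Poisson interval ran from 1.33 to 6.82. The classes were far apart in every library, 26.0-fold over the pooled cells.

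*Il15*, *Il2ra*, *Il7r* and *Il2rg* were also higher in the *Ccr7* or *Fscn1* class in all 4 libraries. The share of all genes higher in this way is not given here, so this is description only. *Il15* was 30.3 CPM in the *Ccr7* or *Fscn1* class (M1 32.7, M2 7.90, M5 37.8, M6 35.5), against 3.78 in the *Xcr1* or *Clec9a* class, with 2.10 to 5.26. *Il2ra* was 65.4 CPM (49.1 to 76.4) against 6.62 (1.32 to 10.7). *Il7r* was 197 CPM (134 to 253) against 23.2 (14.5 to 45.9). The shared chain *Il2rg* was 97.6 against 34.5 CPM, without overlap, and *Il2rb* was 149 against 69.5 but higher in 3 of 4 libraries only. *Il7* was 2.44 against 1.42 CPM, higher in 3 of 4, and *Il2* went the other way, at 0.488 against 1.42, lower in 2 libraries and higher in 1. Without thinning, *Il7* UMIs lay in 4 and 1 cells of these classes and *Il2* UMIs in 1 and 3. Both directions therefore rest on very few cells. *Il7r* was also high, at 272 CPM, in the 45 DC with *Cd209a*, a gene of monocyte-related dendritic cells.

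A fold rule was used to set such differences beside all genes: a gene counts as past the fold when its log2 ratio, with 1 CPM added, is over 2-fold the same way in all 4 libraries, among genes of at least 5 CPM in either class. It was applied to the classes within DC, Stroma, Myeloid and ILC after their values were seen. The counts of members for those classes are therefore description and not a test. Between these DC classes, 4 of the 6 members tested were past it, all higher in the *Ccr7* or *Fscn1* class (*Il2ra*, *Il2rg*, *Il7r* and *Il15ra*), where 3.98% of all 9269 genes tested were. No member was past it in the other direction, against 0.993% of all genes. *Il15* missed it because of M2 alone. T cell transcripts were present in both classes. The summed level of 4 T cell markers, all 4 detected in both classes, was 344 CPM (60.6 to 556 over the libraries) in the *Ccr7* or *Fscn1* class and 112 CPM (51.5 to 281) in the other. It was higher in the *Ccr7* or *Fscn1* class in M1 and M6, but lower in M5, at 209 against 281. In library M2, where these sums were nearest, at 60.6 and 57.9, *Il2ra* was 76.4 and 1.32 CPM and *Il15ra* 76.4 and 5.26. The summed level of 5 Myeloid markers was 1195.5 and 715.9 CPM in M2. The part of carried transcripts in the difference between the classes was not tested. With cells that carried at least 3 UMIs of another lineage left out, a filter that was applied after the values were seen, the *Ccr7* or *Fscn1* class had 92.3 CPM of *Il15ra*, 62.2 of *Il2ra* and 197 of *Il7r*.

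**Figure D3:**
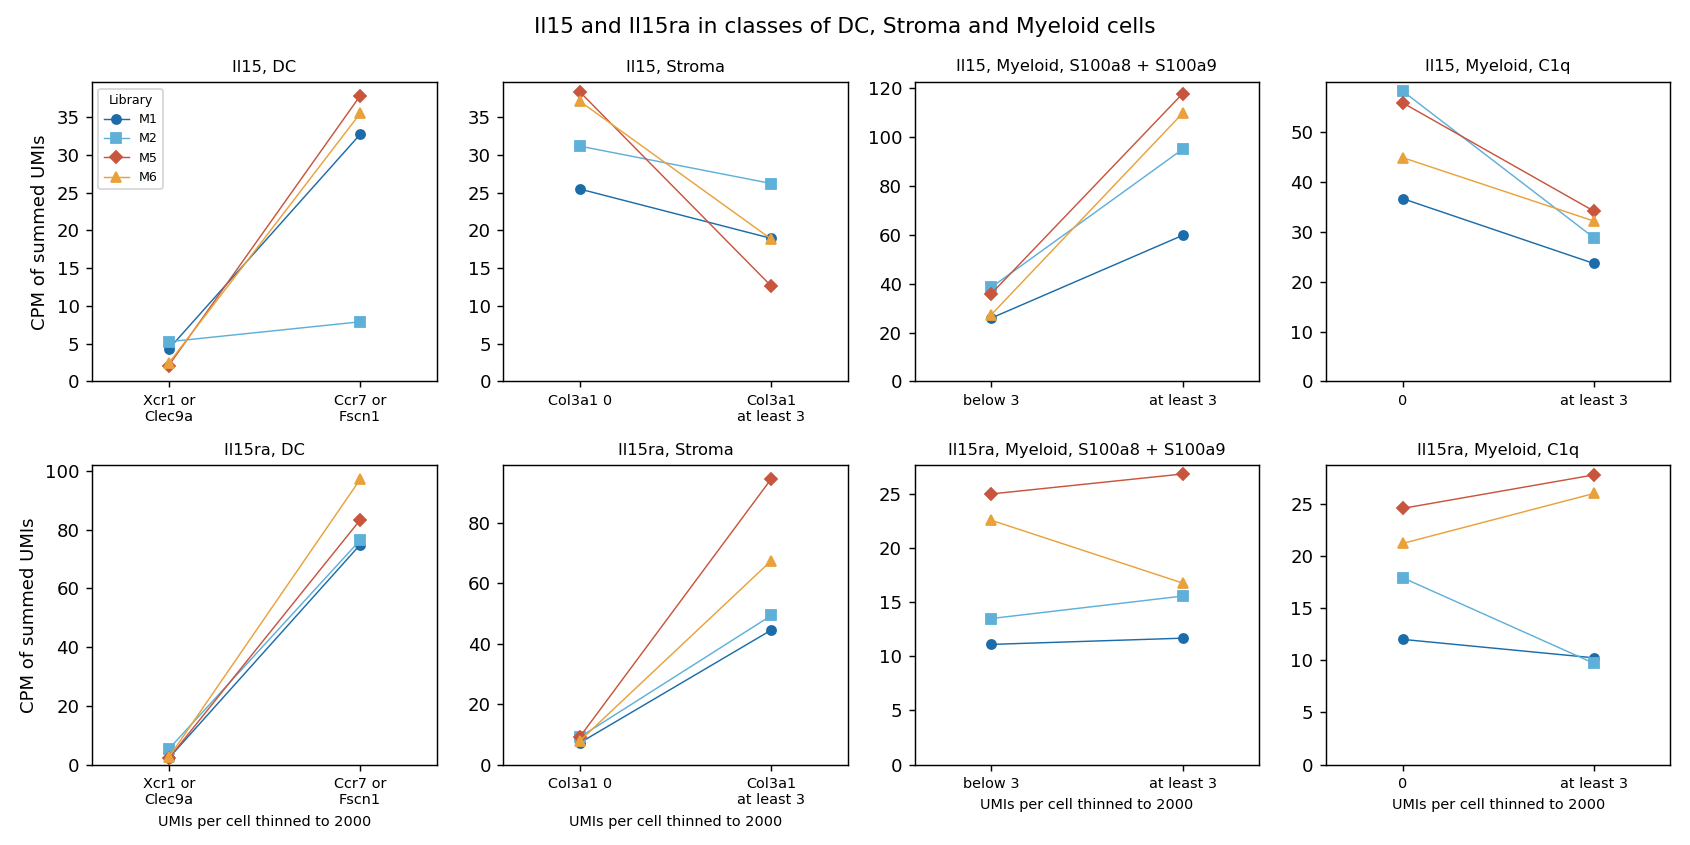
CPM of summed UMIs of *Il15* (top) and *Il15ra* (bottom) in classes of DC, Stroma and Myeloid cells, split by UMIs of the genes named in the title or on the horizontal axis after thinning to 2000 UMIs per cell. Each line is 1 library. *Il15ra* is far higher in DC with *Ccr7* or *Fscn1* and in Stroma with *Col3a1*, and *Il15* is higher in Myeloid cells with *S100a8* and *S100a9*.

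Stroma also held a small class with much *Il15ra*, and its range overlapped that of the *Ccr7* or *Fscn1* DC. The 243 Stroma cells with at least 3 *Col3a1* UMIs had 57.0 CPM (M1 44.5, M2 49.3, M5 94.5, M6 67.5). The 13860 Stroma cells with none had 8.21 CPM, with 7.22, 9.11, 9.22 and 7.89. The difference was 6.95-fold over the pooled cells and the ranges were far apart. *Il15* went the other way, at 19.9 CPM (12.6 to 26.2) against 30.9 (25.5 to 38.3), lower in all 4 libraries but with overlapping ranges. The *Col3a1*-rich cells had *Col1a1* at 5453 CPM and *Xist* at 395, and the cells without *Col3a1* had 53.7 and 14.7, so that the cells without *Col3a1* had little of the RNA that marks cells of a female host. Of the 5 members tested, *Il15ra* alone was higher past the fold, where 11.5% of all genes were, and none was lower, where 3.38% were. The T cell marker sum was 125 CPM in the *Col3a1*-rich cells, of which *Cd3e* made up 98.0, and 9.45 in the others, while *Ptprc* was 14.3 and 7.12. Without cells of mixed lineage, *Il15ra* in the *Col3a1*-rich cells was 56.5 CPM.

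Split by *Xist* instead, the 390 Stroma cells with a UMI had *Il15ra* at 33.7 CPM (27.9 to 42.5) and the 15252 cells without had 8.46 (7.54 to 9.84). *Il15* was 18.2 CPM (15.5 to 19.7) against 31.4 (25.9 to 38.4), and here the ranges did not overlap. *Il7* was 8.78 and 11.0 CPM, and higher with *Xist* in 1 of 4 libraries. The cells with *Xist* also carried lymphocyte transcripts, with *Il2rb* at 59.9 CPM against 7.38, and the part of mixed cells in the *Il15ra* value was not tested for this split.

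Among Myeloid cells, *Il15* differed with neutrophil genes. The 438 cells with at least 3 UMIs of *S100a8* and *S100a9* together, genes of neutrophils and some monocytes, had 102 CPM (M1 59.8, M2 95.1, M5 118, M6 110). The other 2109 cells had 31.3 CPM, with 25.9, 38.5, 35.9 and 27.3. The 2 ranges did not overlap and the pooled difference was 3.26-fold. This split was chosen after the values were seen. *Csf3r*, the receptor gene of granulocyte colony-stimulating factor, was 198 and 30.5 CPM, and the median depth was 4820 and 9213 UMIs per cell. *Il15* was the only member of 6 tested past the fold, against 1.38% of all genes, and none was lower, against 0.125%. *Il15ra* did not differ in the same way, with 18.1 and 18.6 CPM.

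A split by complement genes gave a smaller difference. Myeloid cells without *C1qa*, *C1qb* or *C1qc* UMIs (1390 cells) had *Il15* at 48.6 CPM (36.7 to 58.2), and the 603 with at least 3, the macrophage-like end, had 29.3 (23.6 to 34.1). *Il7r* was 220 CPM (148 to 252) without C1q and 112 (59.9 to 163) with it, higher without C1q in all 4 libraries. The 254 cells with at least 2 UMIs of the mast cell gene *Cpa3* were low in both parts of the IL-15 pair, with *Il15* at 13.6 CPM and *Il15ra* at 4.54. *Il15* and *Il15ra* UMIs were seen together in 12 Myeloid cells (0.471%) and 24 Stroma cells (0.153%) at 2000 UMIs, where the products of the single shares were 0.324% and 0.115%.

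*Il2ra*, the high-affinity IL-2 chain, was highest in the NKT label. NKT had 268 CPM (M1 203, M2 284, M5 221, M6 330). The label T cells had 188 CPM, with 365, 224, 159 and 190, and overlapped NKT. T cell EFF had 105 CPM (60.9, 68.0, 121 and 162) and T cell MEM 101 (66.1, 56.2, 110 and 113), and these did not differ beyond their spread. ILC followed at 47.9 CPM (31.7 to 65.1), Myeloid at 31.1 (15.2 to 44.5), DC at 24.9 (15.7 to 40.9), NK cells at 7.05 (4.16 to 9.57) and Stroma at 0.481 (0.266 to 0.836). In T cell EFF, T cell MEM, ILC, Myeloid and DC the values of M5 and M6 lay above those of M1 and M2. The former are also the libraries with fewer UMIs per cell and less Stroma, and the part of these differences in the *Il2ra* values was not tested. At 2000 UMIs, 27.6% of NKT cells (24.4 to 31.1), 15.9% of T cell EFF and 0.109% of Stroma carried *Il2ra*, and 39.8%, 44.6% and 1.43% without thinning.

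*Il2rb*, shared by IL-2 and IL-15, was highest in NK cells and ILC, followed by T cell EFF, T cell MEM and NKT. NK cells had 1152 CPM (M1 1165, M2 1049, M5 1171, M6 1199). ILC had 987 CPM, with 942, 973, 1026 and 989, below NK cells and above T cell EFF without overlap. T cell EFF had 692 CPM (561 to 790), T cell MEM 621 (572 to 727) and NKT 568 (522 to 642), and these 3 overlapped. T cells had 274 CPM (172 to 299), Myeloid 267 (225 to 326), DC 99.4 (60.8 to 131), B cells 40.7 (17.8 to 85.6) and Stroma 8.36 (6.68 to 10.8). Thinned to 2000 UMIs, 90.3% of NK cells, 85.5% of ILC and 71.5% of T cell EFF carried a UMI, against 1.78% of Stroma.

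*Il2rg*, needed by all of these cytokines, was spread more evenly over lymphocytes. NKT had 296 CPM (M1 284, M2 253, M5 348, M6 276), above T cell MEM at 242 (214 to 251). B cells had 219 CPM (137 to 319), ILC 181 (157 to 196), T cell EFF 173 (136 to 198) and NK cells 169 (153 to 185), and these overlapped. Myeloid had 111 CPM (93.6 to 136), DC 61.9 (41.0 to 81.5) and Stroma 15.7 (14.0 to 17.1).

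*Il7r*, the IL-7 receptor alpha chain, was highest in T cell Naive, a label of only 55 cells, at 740 CPM (608 to 898). T cells had 468 CPM (M1 365, M2 312, M5 474, M6 507). NKT had 458 CPM, with 296, 482, 500 and 487, and T cell MEM had 387, with 292, 338, 376 and 441. These 3 overlapped, and each was above T cell EFF at 151 CPM (91.6, 123, 165 and 215). DC had 141 CPM (112 to 181), ILC 84.9 (57.0 to 104), NK cells 9.76 (6.24 to 13.6) and Stroma 0.885 (0.681 to 1.33). At 2000 UMIs, 50.1% of NKT cells, 24.6% of T cell EFF and 47.1% of T cell MEM carried a UMI, against 1.59% of NK cells and 0.173% of Stroma.

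*Il7r* also reached 177 CPM in Myeloid (M1 101, M2 168, M5 188, M6 225), and was above T cell EFF in all 4. To set this beside lymphocyte transcripts carried by these cells, each receptor chain was given as a percent of its level in its highest label of at least 100 cells, which leaves out T cell Naive, next to 11 T and NK cell markers. In Myeloid the markers stood at 6.24% to 14.8%, *Il2ra* at 11.6%, *Il2rb* at 23.1%, *Il2rg* at 37.6% and *Il7r* at 37.9%. In DC the markers stood at 4.11% to 9.17%, *Il2rb* at 8.63%, *Il2ra* at 9.27%, *Il2rg* at 20.9% and *Il7r* at 30.1%. *Il2rg* and *Il7r* were therefore above every marker in both labels, *Il2rb* in Myeloid only, and *Il2ra* was within the range of the markers in Myeloid and just above it in DC. Most markers belong to T cells or to NK cells, while *Il2rb* and *Il2rg* were high in both. *Il2rb* was 692 CPM in T cell EFF and 1152 in NK cells, and *Il2rg* 173 and 169. What transcripts carried from both add to these 2 chains was not tested. Against its level in T cell Naive, *Il7r* was 24.0% in Myeloid and 19.1% in DC, also above every marker. Most of the markers were highest in other labels than *Il7r*. The part of carried transcripts in the *Il7r* values of Myeloid and DC was not tested.

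**Figure D4:**
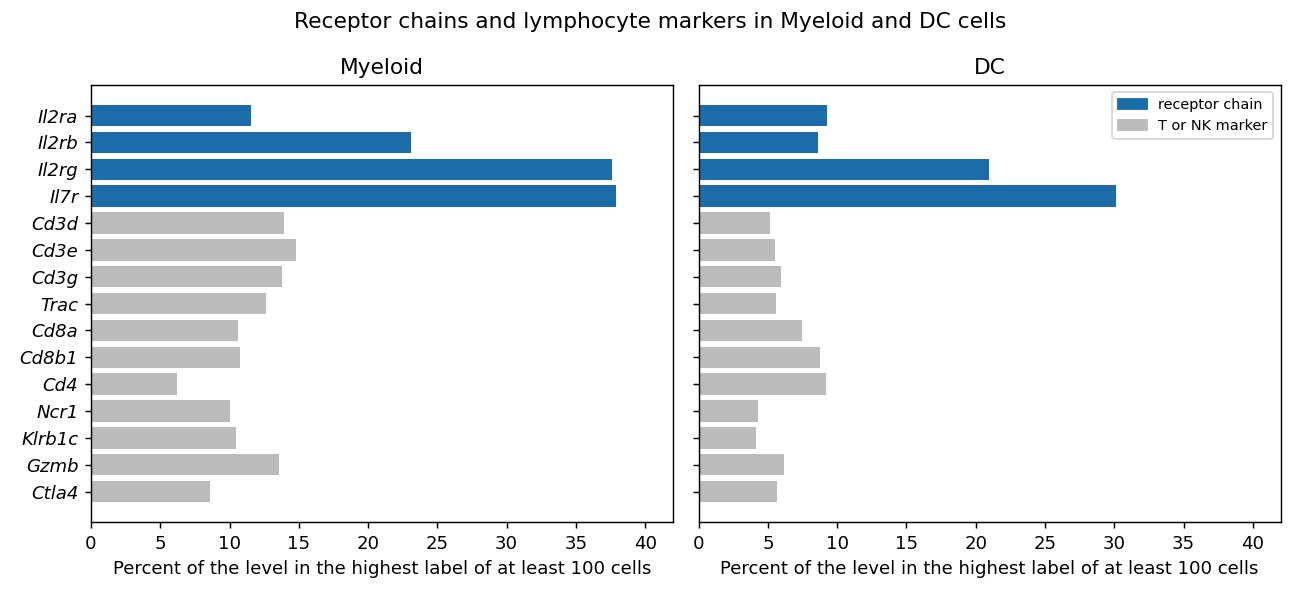
Level of 4 receptor chains (blue) and 11 T and NK cell markers (grey) in Myeloid (left) and DC (right), as percent of the level in the label of at least 100 cells where each gene is highest. *Il7r* and *Il2rg* stand above all of the markers in both panels, at 37.9% and 37.6% in Myeloid.

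Cells labelled as T cells or NKT with a CD3 chain UMI were also split by lineage genes after thinning to 2000 UMIs. A Foxp3 class had a *Foxp3* UMI (452 cells, with 24, 44, 205 and 179 in M1, M2, M5 and M6), a CD4 class had *Cd4* and neither *Cd8a*, *Cd8b1* nor *Foxp3* (329 cells), and a CD8 class had *Cd8a* or *Cd8b1* and neither *Cd4* nor *Foxp3* (3531 cells). The Foxp3 class came from the labels NKT (36.1%), T cell MEM (24.3%), T cell EFF (24.1%) and T cells (14.8%). None of the members was used in the split. *Foxp3* was 445 CPM even in the Foxp3 class, so its UMIs are often missed at 2000 UMIs. The CD4 class can therefore hold regulatory T cells without a *Foxp3* UMI.

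*Il2ra* was highest in the Foxp3 class. It had 399 CPM (M1 515, M2 625, M5 375, M6 370). The CD4 class had 223 CPM, with 177, 136, 251 and 216, and the CD8 class had 90.3, with 67.7, 56.7, 96.2 and 133. No 2 classes overlapped in range. The Foxp3 class was 4.42-fold above the CD8 class and 1.79-fold above the CD4 class, higher in 4 of 4 libraries each time.

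*Il2rb* was highest in the CD8 class instead, with 757 CPM in the CD8 class (835, 859, 746 and 606), 501 in the Foxp3 class (656, 433, 509 and 487) and 420 in the CD4 class (363, 367, 491 and 363). The Foxp3 class was below the CD8 class in all 4 libraries, although the ranges overlapped. *Il2rg* was 301 CPM in the CD4 class, 270 in the Foxp3 class and 190 in the CD8 class.

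*Il7r* was not low in the Foxp3 class, although regulatory T cells are commonly sorted as low for its protein. The class had 519 CPM (M1 246, M2 376, M5 535, M6 558). The CD4 class had 447 CPM, with 343, 619, 439 and 451, and the 2 classes changed places between libraries. The CD8 class had 176 CPM, with 117, 141, 179 and 259, and the Foxp3 class was 2.95-fold above it, higher in 4 of 4 libraries. *Il2ra* and *Il7r* UMIs were found in the same cell in 24.1% of the Foxp3 class (109 of 452) and 4.70% of the CD8 class, where the products of the single shares were 22.2% and 3.51%.

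By the same fold rule, 2 of 7 members tested (*Il2ra* and *Il7r*) were higher in the Foxp3 class than in the CD8 class, where 2.11% of all genes were, and none was lower, where 1.21% were. Of the 23 pathway genes tested, *Stat5b* (159 against 45.0 CPM), the feedback inhibitor gene *Socs2* (81.6 against 18.3), the survival kinase gene *Pim1* (1102 against 374) and *Foxp3*, which defined the class, were higher past the fold, and the pore-forming *Prf1* (199 against 873) was lower. NKT against T cell EFF gave the same 5 pathway genes, and the 2 comparisons share cells. There *Il7r* was the only member of 7 past the fold, higher in NKT, against 2.17% of all genes, and none was lower, against 2.21%.

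**Figure D5:**
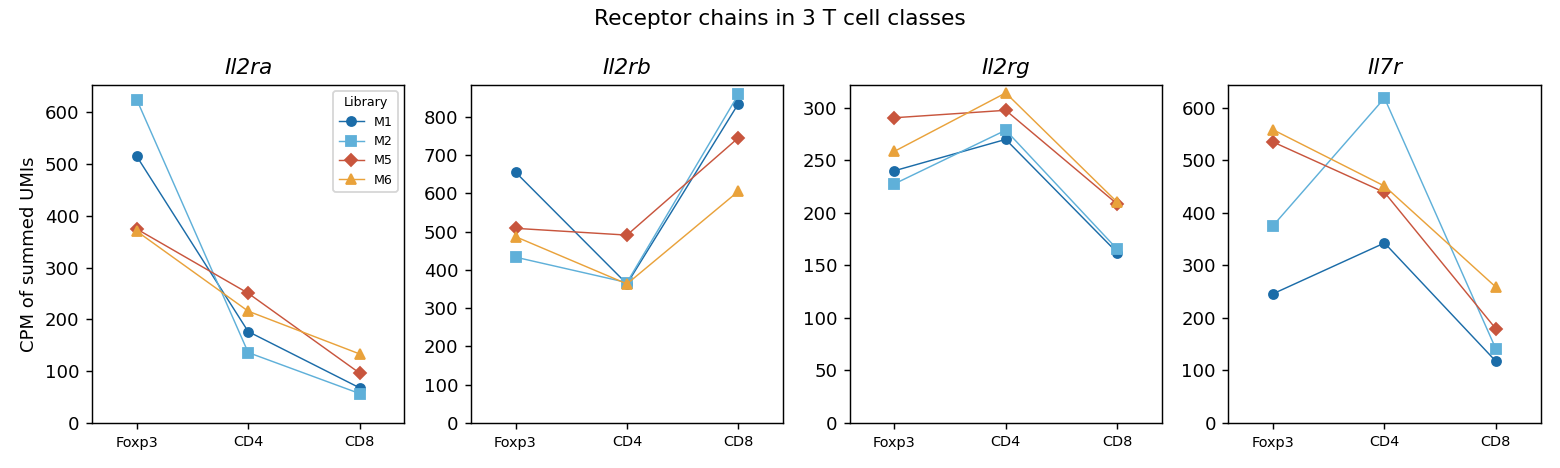
CPM of summed UMIs of *Il2ra*, *Il2rb*, *Il2rg* and *Il7r* in the Foxp3, CD4 and CD8 classes of T cells. Each line is 1 library. *Il2ra* steps down from Foxp3 to CD4 to CD8 in all 4 libraries, *Il2rb* is highest in CD8, and *Il7r* is lowest in CD8.

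The chains needed together for high-affinity IL-2 binding, *Il2ra*, *Il2rb* and *Il2rg*, were all detected at 2000 UMIs in 11.5% of the Foxp3 class (52 of 452 cells, 8.71 to 14.8). The CD4 class had 5.47%, the CD8 class 3.40%, ILC 2.48% and NK cells 0.332%. The pair that serves IL-2 and IL-15 at lower affinity, *Il2rb* with *Il2rg*, was seen in 29.9% of ILC, 29.7% of NK cells, 25.7% of the Foxp3 class and 24.8% of the CD8 class. The IL-7 pair, *Il7r* with *Il2rg*, was seen in 25.0% of the Foxp3 class, 21.0% of the CD4 class, 9.97% of the CD8 class and 0.427% of NK cells. Many transcripts of a cell are missed at this depth, and Stroma had the first 3 chains together in 1 of 15642 cells.

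Within the CD8 class, receptor levels differed with the antibody targets and with state genes. Cells with both *Pdcd1* (PD-1) and *Tnfrsf18* UMIs (1260 cells) had *Il2rb* at 852 CPM (M1 941, M2 1001, M5 808, M6 676). Cells with neither (690 cells) had 596 CPM, with 599, 612, 636 and 515. The double-positive cells were 1.43-fold higher and above the others without overlap. *Il2ra* differed little between them, with 98.5 and 84.1 CPM, and was higher in 3 of 4 libraries.

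CD8 cells with *Tcf7*, a transcription factor of memory and progenitor T cells (139 cells), had *Il7r* at 379 CPM (M1 223, M2 492, M5 318, M6 506). Those without had 170 CPM, with 115, 136, 173 and 248, so that the level with *Tcf7* was 2.23-fold higher and above in each library. *Il2rb* was lower with *Tcf7* in all 4 libraries, at 538 against 763 CPM. CD8 cells with the division gene *Mki67* (565 cells) had *Il2rb* at 866 against 725 CPM, higher in 4 of 4 libraries, and *Il7r* at 140 against 186, lower in 4 of 4. Cells with *Havcr2*, the gene of the inhibitory receptor TIM-3 (732 cells), had *Il2rb* at 847 against 733 CPM, higher in 4 of 4 libraries. Their *Il2ra* was 102 against 87.3 CPM, but the log2 ratio was only 0.012 in M2 and 0.021 in M5, against 0.66 in M1 and 0.37 in M6.

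ILC and NK cells differed in the receptors that separate helper innate lymphoid cells from NK cells. Of the 6 members tested, *Il2ra* (47.9 against 7.05 CPM) and *Il7r* (84.9 against 9.76) were higher in ILC past the fold, against 2.04% of all genes, and none was lower, against 0.0426%. T cell transcripts moved with the label, and 1402 of 4519 ILC cells carried a CD3 chain UMI at 2000 UMIs. These had *Il7r* at 151 CPM (98.0, 137, 155 and 191) and *Il2ra* at 76.9. The 3117 ILC cells without one had *Il7r* at 44.2 CPM, with 30.4, 33.1, 59.1 and 47.3, and *Il2ra* at 29.9. NK cells without a CD3 UMI (3662 cells) had *Il7r* at 6.72 CPM, with 8.35, 4.25, 4.03 and 10.4, and *Il2ra* at 6.49.

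ILC without a CD3 UMI were thus 6.57-fold above such NK cells for *Il7r* and 4.61-fold for *Il2ra*, in 4 of 4 libraries, with a T cell marker sum of 131 CPM against 46.4. Transcripts of other cells moved with these classes too. The summed level of 5 Myeloid markers was 372 CPM (274 to 524) in ILC without CD3 and 178 (113 to 314) in NK cells without it, and that of 4 fibroblast markers was 167 (56.8 to 323) and 68.4 (43.7 to 110), with all of these markers detected in both. *Il15* was 2.34-fold higher, at 7.92 against 3.39 CPM, and the part of these transcripts in the *Il15* and *Il7r* values was not tested. *Il2rb* was lower in all 4 libraries, at 1008 against 1144. Between ILC with and without CD3, *Il2ra* and *Il7r* were 2 of 7 members past the fold, against 1.71% of all genes, and none was lower, against 0.0421%. The Myeloid marker sum was 1356 CPM (969 to 1776) in ILC with CD3 and 372 without, and its part in these values was not tested. With mixed-lineage cells left out, *Il7r* in ILC without CD3 was 39.2 CPM.

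DC against Myeloid gave no member past the fold in either direction among 6 tested, where 3.4% of all genes were higher and 4.85% lower. The pathway genes *Il4*, *Socs3* (140 against 339 CPM) and *Osm* (30.5 against 188), which encodes a cytokine induced by STAT5, were lower in DC.

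The rest of the pathway was read from 28 further genes. A limit of 100 CPM served to choose genes to name. The share of all genes above it was not computed, so counts by this limit are description only. Of 8 genes of related cytokines and receptors, 3 exceeded 100 CPM in a label of at least 100 cells: *Il4ra* (135 in NKT), *Il21r* (126 in T cell MEM) and *Crlf2* (157 in NKT), a receptor chain that pairs with *Il7r* for TSLP. *Il9* had no UMI in these labels, and *Il21* and *Tslp* reached at most 0.500 CPM. Among the signalling genes, *Jak1* was highest in NK cells at 423 CPM, *Stat5a* and *Stat5b* in T cells at 145 and 208, *Stat3* in T cell EFF at 619 and *Lck* in T cell MEM at 350. *Jak3*, the kinase bound to the common gamma chain, reached 48.8 CPM in T cell EFF.

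Of the 12 target and feedback genes, 11 were above the naming limit of 100 CPM in some label. *Cish*, a feedback inhibitor induced by STAT5, was highest in NKT at 116 CPM (92.3 to 129), the label with the most *Il2ra*. *Pim1* and *Foxp3* were highest in T cells, at 1125 and 239 CPM. The survival and death genes *Bcl2* and *Bcl2l11* were highest in NK cells, at 322 and 344 CPM, as were *Gzmb* at 4955 and *Prf1* at 1798. *Mcl1*, *Socs3* and *Osm* were highest in Myeloid, at 1141, 339 and 188 CPM, and *Socs1* in B cells at 194. Only *Socs2* stayed below, at 82.4 CPM in DC.

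Past the fold, 5 of 23 pathway genes were higher in the *Ccr7* or *Fscn1* DC (*Il21r*, *Stat5a*, *Stat3*, *Socs2* and *Osm*), against 3.98% of all genes. In the *Col3a1*-rich Stroma cells 7 of 20 were higher (*Il4ra*, *Jak1*, *Stat5a*, *Stat3*, *Cish*, *Socs2* and *Pim1*), against 11.5%. There were 2 of 24 in ILC with CD3 (*Il21r* and *Foxp3*), against 1.71%, 1 of 24 in ILC against NK cells (*Foxp3*), against 2.04%, and 1 of 24 in the *S100a8* and *S100a9* Myeloid cells (*Osm*), against 1.38%. None was lower in these 5 comparisons, where 0.993%, 3.38%, 0.0421%, 0.0426% and 0.125% of all genes were, in the same order.

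The genes most like each member were ranked by Pearson r of log2(CPM + 1) over 38 sums of a label and a library with at least 20 cells, among 10270 genes. The sums share libraries, depth and the labels themselves, so r is a description. *Il2ra* was most like *Stx6* (0.92), *Xlr4c*, *Ap3b1*, *Ikzf4* and *Abracl*. *Il2rb* was most like *Capza1* (0.97), *AW112010*, *Ctla2a*, *Gzmb* and *Cst7*, and *Il2rg* like *Ccdc88c* (0.98), *Zcchc11*, *Cd2*, *Ltb* and *Gimap1*. *Il7r* was most like *Matk* (0.95), *Slfn1*, *Cd5*, *Tnfrsf4* and *Cd4*.

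Among the IL-15 and IL-7 genes, *Il15* was most like *Fam129b* (0.95), *Ralb*, *Ifitm3*, *Pla2g4a* and *Batf2*. *Il7* was most like *Fat1* (0.94), *Nars*, *Tsen34*, *Plxna2* and *Pcbp1*, and *Il15ra* like *Tmem184b* (0.89), *Vipas39*, *Tmem185b*, *Wbp1* and *Dmap1*. *Il2* reached only 0.71, with *Penk*, followed by *Aldh5a1*, *Rln3*, *Ccr3* and *Atl3*, and rests on few cells. Between members, r was 0.37 for the neighbours *Il2ra* and *Il15ra*, 0.73 for *Il2rb* and *Il2rg*, and 0.67 for *Il7* and *Il15*.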

How the data were processed

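Single-cell mRNA-seq used 3′ droplet chemistry. UMIs were counted by the authors with Cell Ranger 3.0.2 (per the labels) against GRCm38, and cells with over 500 UMIs were kept. The deposited values are unnormalized UMI counts, with the total, library name and cell type label for every cell. For each of the 33961 cells the counts added up to that total. Removal of doublets or free RNA is not given in the sources used here, and no doublet caller was run. Thinning, classes and contrasts were computed with numpy 2.4.6, pandas 2.3.3 and scipy 1.17.1 in Python 3.11.15, with figures from matplotlib 3.10.9.

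The 4 library names could not be matched to the 6 samples, so the planned edgeR comparison of treatments was not run and libraries of unknown condition are not treated as replicates. UMIs were summed per label or class and scaled to CPM. For shares and classes, cells were thinned without replacement to 2000 UMIs, which left out 696 shallower cells and was tested on simulated data. Intervals are exact 95% Poisson or binomial intervals, and 0 counts were read as allowing up to 3. Labels came from whole profiles, so no label was tested against the rest. Gene positions are from GENCODE M21 and promoter windows from RefSeq, which gave a window for 4 of 8 members.

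The members and lists were chosen with earlier results of these data known. Named were all 8 members, pathway genes above 100 CPM in a label of at least 100 cells or needed by the text, and the 5 genes most like each member. The result of a single gene on the pathway list is not reported here. The fold rule was also applied to classes of DC, Stroma, ILC and Myeloid cells after their values were seen. Alternatives were thinning depth, pseudocount, minimum CPM, fold, filters on mitochondrial UMIs (over 10%) and mixed lineage, means over cells, and leaving out each library.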

Additional observations from a re-analysis of the deposited data

Results flagged for a closer look

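Each member's 4 library values in a label were looked at where they rested on at least 50 UMIs, in 60 sets. In 3 sets 1 library stood apart from the other 3 by Dixon's criterion at the 95% level, which about 5% of sets would meet by chance. *Il2* in T cell EFF was 36.9 CPM in M5 and 0.983 to 2.02 in the others, and without the cells of 5 or more *Il2* UMIs it was 1.76 in M5. *Il7r* in NKT was 296 CPM in M1 and 482 to 500 in the others. *Il15ra* in NK cells was 8.23 CPM in M1 and 9.42 to 9.57 in the others.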

How the results depend on the processing

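No paired analysis was possible because names of libraries carry no replicate number and match no sample label, and the treatment tests with edgeR and DESeq2 were not run for the same reason. The log2 ratios of the Foxp3 to the CD8 class kept their direction in all 4 receptor chains tried. The splits within CD8, DC, Stroma, Myeloid and ILC were not repeated under other settings, beyond levels of some classes. The log2 ratio of the Foxp3 to the CD8 class for *Il2ra*, 2.13 as reported, was 1.93 with classes set at 1000 UMIs and 1.99 at 4000, and 1.93 to 2.42 with 1 library left out. For *Il2rb*, -0.59 as reported, it was -0.41 at 4000 UMIs and -0.65 to -0.53 with 1 library left out. For *Il7r*, 1.55 as reported, both depths gave 1.31, and leaving out a library 1.47 to 1.68.

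Counts of genes past the fold moved with the settings. Genes higher in NKT than in T cell EFF were 210, 133 with a pseudocount of 5 CPM and 590 at 1.5-fold, and lower 214, 99 and 586, and 117 at a minimum of 20 CPM. Higher in ILC than in NK cells were 191, 101 with 5 CPM added, 107 at 20 CPM and 381 at 1.5-fold, and lower 4 and 20 at 1.5-fold. Higher in DC than in Myeloid were 334 and 576 at 1.5-fold, and lower 476 and 886. Higher in the Foxp3 than in the CD8 class were 200 and 458 at 1.5-fold, and lower 115, 63 with 5 CPM added, 68 at 20 CPM and 323 at 1.5-fold. With 1 library left out, genes lower in NKT were 252 to 350, over 1.5 times the count without M1 (350) or M2 (344), genes lower in ILC 4 to 9 (9 without M2), and genes lower in the Foxp3 class 157 to 210 (210 without M1). With a library left out, the rule asks for the fold in fewer libraries, which by itself tends to raise these counts. The 32 counts recomputed this way were 1 to 2.25 times those reported. Why the rise differed with the library left out was not tested. In these 4 comparisons, members past the fold stayed the same except that *Il2ra* joined in NKT at 1.5-fold and without M5, *Il2rb* was lower in DC at 1.5-fold and without M6, and *Il15* was lower in DC without M1.

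Levels rested on all cells. Leaving out 1234 cells of mixed lineage (3.63%) or 3787 cells over 10% mitochondrial UMIs moved none of the levels tried, 24 and 16, by over 1.5 times. Averaged over cells instead of UMIs, *Il2* was 4.68 CPM in T cell EFF and 12.2 in T cells, and *Il15* was 64.0 in Myeloid. Thinning depth moved the shares of cells. The 16 shares recomputed were 0.478 to 1.30 times the reported share at 1000 UMIs, where 11 of them moved by over 1.5 times, and 1.08 to 2.14 times at 4000 UMIs, where 9 did.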
